A study of Mus musculus with 49 samples.

Results

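Gene expression was compared between mouse embryonic stem (mES) cells with and without Trim24 after 4 h of p53 activation. The comparison holds 6 of the 49 samples of the series: 3 samples with Trim24 and 3 samples without it, taken from the time course, and it covers all 20489 protein-coding genes of the table, of which 16138 had enough signal to be tested. The 6 samples were chosen by their labels alone and not by any measured value.

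All 6 samples came from the TC-1 mES cell line, in which both copies of the endogenous Trim24 gene carried an FKBP12-derived degron and a V5 tag at the carboxyl terminus, and such a line derives from picked clones. The cells were grown in serum and LIF, for several passages on gelatin-coated plates per the study's methods. The group with Trim24 received 1 µM doxorubicin, a topoisomerase poison that activates p53, for 4 h, and the group without Trim24 received 1 µM doxorubicin together with 500 nM dTAG13, the compound that directs degron-tagged proteins to proteolysis, for the same 4 h. Cells before activation (0 h, no doxorubicin and no dTAG13, 3 samples) gave the starting level. The same contrast was also made at 2, 8 and 12 h (3 samples with and 3 without Trim24 at each time), in 8 separate samples at 4 h (4 with and 4 without Trim24), and in uninduced cells that received no doxorubicin (3 without dTAG13 and 3 with 500 nM dTAG13). One label of the uninduced cells without dTAG13 names them as p53-activated, whereas their titles give them as untreated, and the titles were followed. Every sample without Trim24 had received dTAG13, so that effects of the compound itself and of Trim24 loss cannot be told apart here. The study's methods call the RNA replicates biological, and a figure legend speaks of triplicate experiments. Nothing in the labels says whether same-group samples came from separate cultures, and the p-values then measure only the spread between these samples.

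Trim24 is a chromatin protein of the TIF1 family of the TRIM proteins, with a RING finger, a plant homeodomain and a bromodomain that read the tail of histone H3. p53 is the transcription factor that DNA damage stabilises. It binds a pair of decamer half-sites and raises genes of cell cycle arrest, DNA repair and cell death, among them its own inhibitor Mdm2. Many p53 binding sites lie in chromatin that is closed in a given cell type, where the nearby genes are silent, and cofactors of p53 are studied for how they limit or allow transcription from such places.

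The libraries were alike in depth, with 17704232 to 21125900 reads over genes in samples with Trim24 and 19320096 to 21431767 in samples without it. The number of genes with any reads did not overlap, at 17483 to 17623 with Trim24 and 18034 to 18603 without it. In the separate samples it overlapped, at 18147 to 19057 with Trim24 and 17903 to 18633 without it. The part of this difference in the calls of low genes was not tested. The cells carried the defining transcripts of pluripotent stem cells: Pou5f1 lay between 886 and 992 CPM (the reads of a gene scaled to the size of the library) with Trim24 and between 853 and 939 CPM without it. The other stem cell markers, Sox2, Nanog, Zfp42 and Esrrb, were each lower without Trim24, without overlap. The sum of all 5 lay at 1699 to 1820 CPM with and 1490 to 1597 CPM without Trim24. In the separate samples that sum overlapped, at 1552 to 1794 CPM with and 1594 to 1670 CPM without Trim24. The markers of fibroblasts, the usual feeder cells, summed to 16.9 to 19.8 CPM with Trim24 and 15.4 to 16.8 CPM without it. That sum covered 7 genes, and most of it was Thy1. Mdm2, the check of the activation, lay at 177 to 186 CPM at 0 h and at 930 to 989 CPM at 4 h with Trim24. The degron acts on the protein, so Trim24 RNA does not check the labels. It lay at 119, 123 and 119 CPM with Trim24 and at 138, 145 and 141 CPM without it, a log2 fold change of 0.23 ± 0.05 (SE, n = 3 and 3, adjusted p = 2.6e-03 with limma).

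Trim24 loss at 4 h raised 162 genes (1.00% of 16138 tested) and lowered 24 (0.149%). Calls required a log2 fold change beyond 0.75 in either direction together with an adjusted p below 0.01. All log2 fold changes here are on the scale of the deposited values, log2 CPM with a prior count of 8, which understates the change of low genes. The samples with and without Trim24 did not overlap for any of the 162 or the 24 genes. The call was made on these same 6 samples and largely sets this, so it adds no separate support. With an adjusted p under 0.05 and no minimum fold change, 848 genes were higher (5.25%) and 1000 lower (6.20%), so that increases outnumbered decreases among the large changes only. At an unadjusted p under 0.05, 1884 genes were higher (11.7%) and 2134 lower (13.2%). The lower genes were the less stable part: 112 of the 162 increases, but 7 of the 24 decreases, stayed called whichever 1 of the 6 libraries was left out. Those 7 were Cldn3, Nrtn, Gcm1, Fgf15, Spry4, Myc and Trim46. The median log2 fold change over all tested genes was 0.002.

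**Figure D1:**
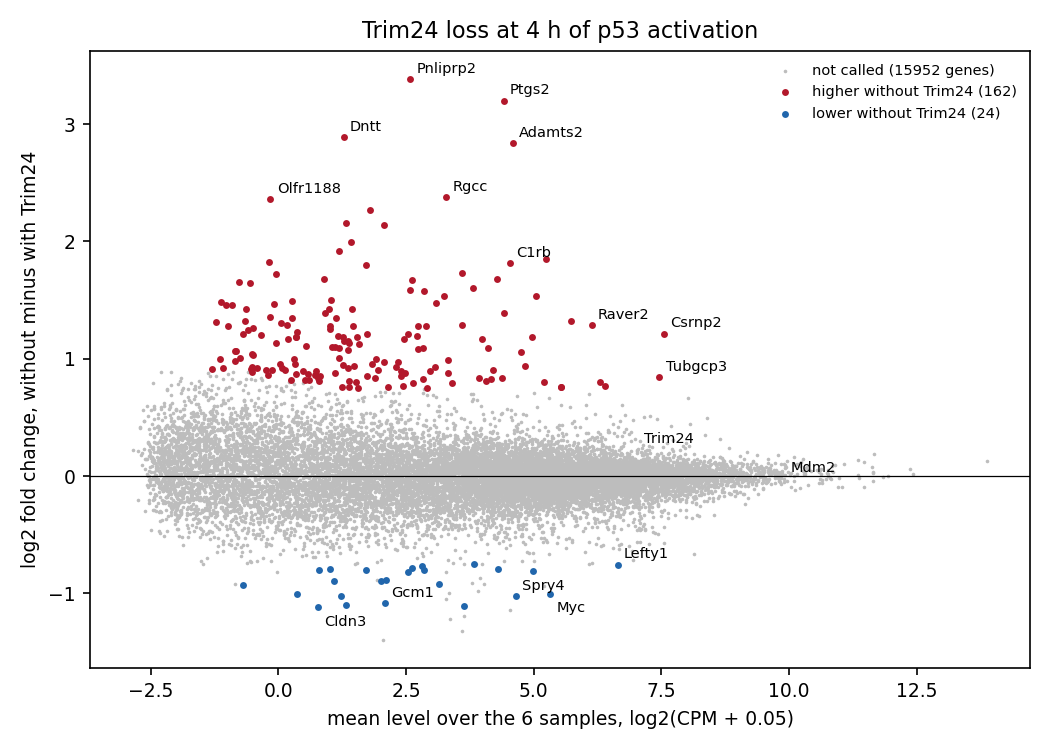
Log2 fold change on Trim24 loss at 4 h (vertical) against the mean level over the 6 samples on a log2 axis (horizontal), 1 point for each of the 16138 tested genes. The 162 higher genes (red) spread over levels below those of the most abundant genes and reach 3.39 (Pnliprp2), whereas the 24 lower genes (blue) reach -1.12 (Cldn3), and Mdm2 lies near 0.

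Most called increases were in genes of low level before activation, with 34 under 0.1 CPM at 0 h, 68 at 0.1 to 1 CPM, 46 at 1 to 10 CPM and 14 at 10 to 100 CPM. Over all genes of the table these were 0.715% of 4754, 2.33% of 2916, 1.25% of 3676 and 0.22% of 6373 genes. Of the 2770 genes at 100 CPM or more limma and limma-voom each called 0 higher, while 270 were higher at an unadjusted p under 0.05 and 99 of them also after adjustment. Of the 4754 genes under 0.1 CPM only 704 had enough signal to be tested. A gene that is silent at 0 h and with Trim24 can pass that filter through the samples without Trim24 alone, so the share of these 704 that was higher and the absence of decreases among them are partly set by the filter. The fold minimum is also harder to pass for low genes, since the scale compresses low values.

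The genes are described by what their products do, a grouping made after their values were seen and not tested. Several enzymes and secreted proteins were among the increases, and Pnliprp2 had the largest log2 fold change of all. Pnliprp2 (chr19:58759719-58777534 on the plus strand, mm10), a lipase related to pancreatic lipase, lay at 1.01, 0.517 and 0.742 CPM with Trim24 and at 11.7, 11.1 and 10.6 CPM without it. These were 9 to 21 reads per library against 211 to 224, and the log2 fold change was 3.39 ± 0.16 (SE, adjusted p = 5.5e-14). Ptgs2 (chr1:150100031-150108227, plus strand), the inducible cyclooxygenase that makes the precursor of prostaglandins, lay at 3.57, 4.31 and 3.82 CPM with Trim24 and at 39.0, 39.0 and 38.0 CPM without it. The samples of each group lay close together and far from the other group, and the log2 fold change was 3.20 ± 0.09 (adjusted p = 5.1e-18). Ptgs2 had been at 2.04 to 2.70 CPM at 0 h. Adamts2, the protease that trims the amino end of fibrillar procollagens, lay at 5.55, 5.17 and 6.16 CPM with Trim24 and at 43, 40.7 and 43.5 CPM without it. Its log2 fold change was 2.84 ± 0.09 (adjusted p = 9.5e-18). Reg1, a secreted lectin of the exocrine pancreas, averaged 0.67 CPM ± 0.083 (SD, n = 3) with and 4.23 ± 0.26 without Trim24. Cyp4f39, a cytochrome P450 of the fatty acid omega-hydroxylase family, stood at 3.3 CPM ± 0.54 at 0 h, at 30.1 ± 1.4 with Trim24 at 4 h and at 75.6 ± 1.9 without it.

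Receptors, a channel and a junction protein were also among the 30 largest increases. Adra2a, an adrenergic receptor coupled to inhibition of adenylyl cyclase, lay at 1.01, 1.03 and 0.799 CPM with Trim24 and at 5.88, 6.28 and 5.56 CPM without it (log2 fold change 2.27 ± 0.16, adjusted p = 1.4e-10). Ffar3 and Ffar1, receptors for short-chain and for medium- and long-chain fatty acids, rose by 2.00 ± 0.17 and 1.92 ± 0.20 on the log2 scale. Cd22, an inhibitory lectin of B cells whose gene lies next to them on chromosome 7, rose by 2.14 ± 0.15. Of 21 tested members of the list of lymphoid and myeloid markers (28 listed) 2 rose, Cd22 and Dntt, beside 1.00% of all tested genes. That list was chosen with earlier results known, and low genes can pass the filter through the samples without Trim24 alone. The summed level of 8 defining markers of those lineages was 4.17 to 5.46 CPM with and 4.99 to 5.56 CPM without Trim24. Trpm6, a magnesium channel, averaged 5.39 CPM ± 0.41 with and 18.7 ± 1.1 without Trim24. Gjb2, a gap junction connexin, lay at 4 or 5 reads in each library with Trim24 and at 27 to 39 reads without it (log2 fold change 1.72 ± 0.20, adjusted p = 1.2e-06).

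Dntt encodes the template-independent polymerase that adds nucleotides to the joints of antigen receptor genes. It had 0 reads in all 3 libraries at 0 h, 3 to 7 reads in each library with Trim24 at 4 h and 64 to 106 reads without Trim24. In CPM these were 0.290, 0.172 and 0.399 against 3.36, 5.6 and 4.43, with a log2 fold change of 2.89 ± 0.20 (adjusted p = 1.6e-10). As p53 acts through its binding sites, the promoter window of each gene (250 bases before to 50 after the start, RefSeq, GRCm38.p6) was read for a pair of p53 half-site cores at the spacing they have in the p53 consensus. The pattern is its own reverse complement, so 1 scan covers both strands. It stood in 8 of the 125 higher genes with a window (6.4%), in 3 of 17 lower genes (17.6%) and in 846 of all 12723 tested genes with a window (6.65%). The share among the higher genes was close to that of all promoters, and these windows do not cover distant sites. The 3 higher genes that had such a pair and were also higher in the separate samples are shown with the cores in capitals, each on its own strand.
Dntt promoter, chr19:41029025-41029122, plus strand: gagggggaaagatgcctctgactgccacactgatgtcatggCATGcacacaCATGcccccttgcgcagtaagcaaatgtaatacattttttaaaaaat
Vmn2r104 promoter, chr17:20048206-20048272, minus strand: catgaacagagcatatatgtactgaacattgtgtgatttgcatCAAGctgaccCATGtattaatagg
Muc13 promoter, chr16:33793986-33794042, plus strand: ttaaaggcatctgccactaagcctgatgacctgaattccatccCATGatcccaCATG
The first core began 209 bases before the start of Dntt, 24 bases before that of Vmn2r104, a vomeronasal receptor gene, and 8 bases before that of Muc13, a transmembrane mucin, whose pair runs across the start.

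Of the complement genes, C1ra, C1rb, C1s2 and C6 rose. These were 4 of 23 tested members of the complement list (30 listed), beside 1.00% of all tested genes. The list's median log2 fold change was 0.108 against 0.002 over all genes. The list was chosen with earlier results known, and low genes can pass the filter through the samples without Trim24 alone. As C1ra, C1rb and C1s2 are neighbours, the 4 do not count as independent members. C1rb and C1ra, the mouse genes for the protease C1r that starts the classical pathway, and C1s2, for its substrate protease C1s, lie within a stretch of chromosome 6 (from 124512405 at the start of C1ra to 124636085 at the end of C1s2, mm10). C1rb lay at 10.1, 10.2 and 9.82 CPM with Trim24 and at 34.8, 40.1 and 34.1 CPM without it (log2 fold change 1.82 ± 0.08, adjusted p = 3.1e-14). C1ra averaged 4.63 CPM ± 0.53 with and 14.2 ± 2.4 without Trim24, and C1s2 averaged 4.99 ± 0.59 and 9.10 ± 0.29. C1ra and C1rb are close copies, and 1 placement was drawn at random for a read with several matches, so their split is uncertain, although C1s2 moved the same way. The fourth member, C6, a pore protein of the terminal pathway, had 2 to 5 reads in libraries with Trim24 and 10 to 23 without it. Its log2 fold change was 1.07 ± 0.24 (adjusted p = 3.6e-03), a call lost on leaving out any of 3 of the 6 libraries, and in the separate samples it was 0.37 with an adjusted p of 0.25.

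**Figure D2:**
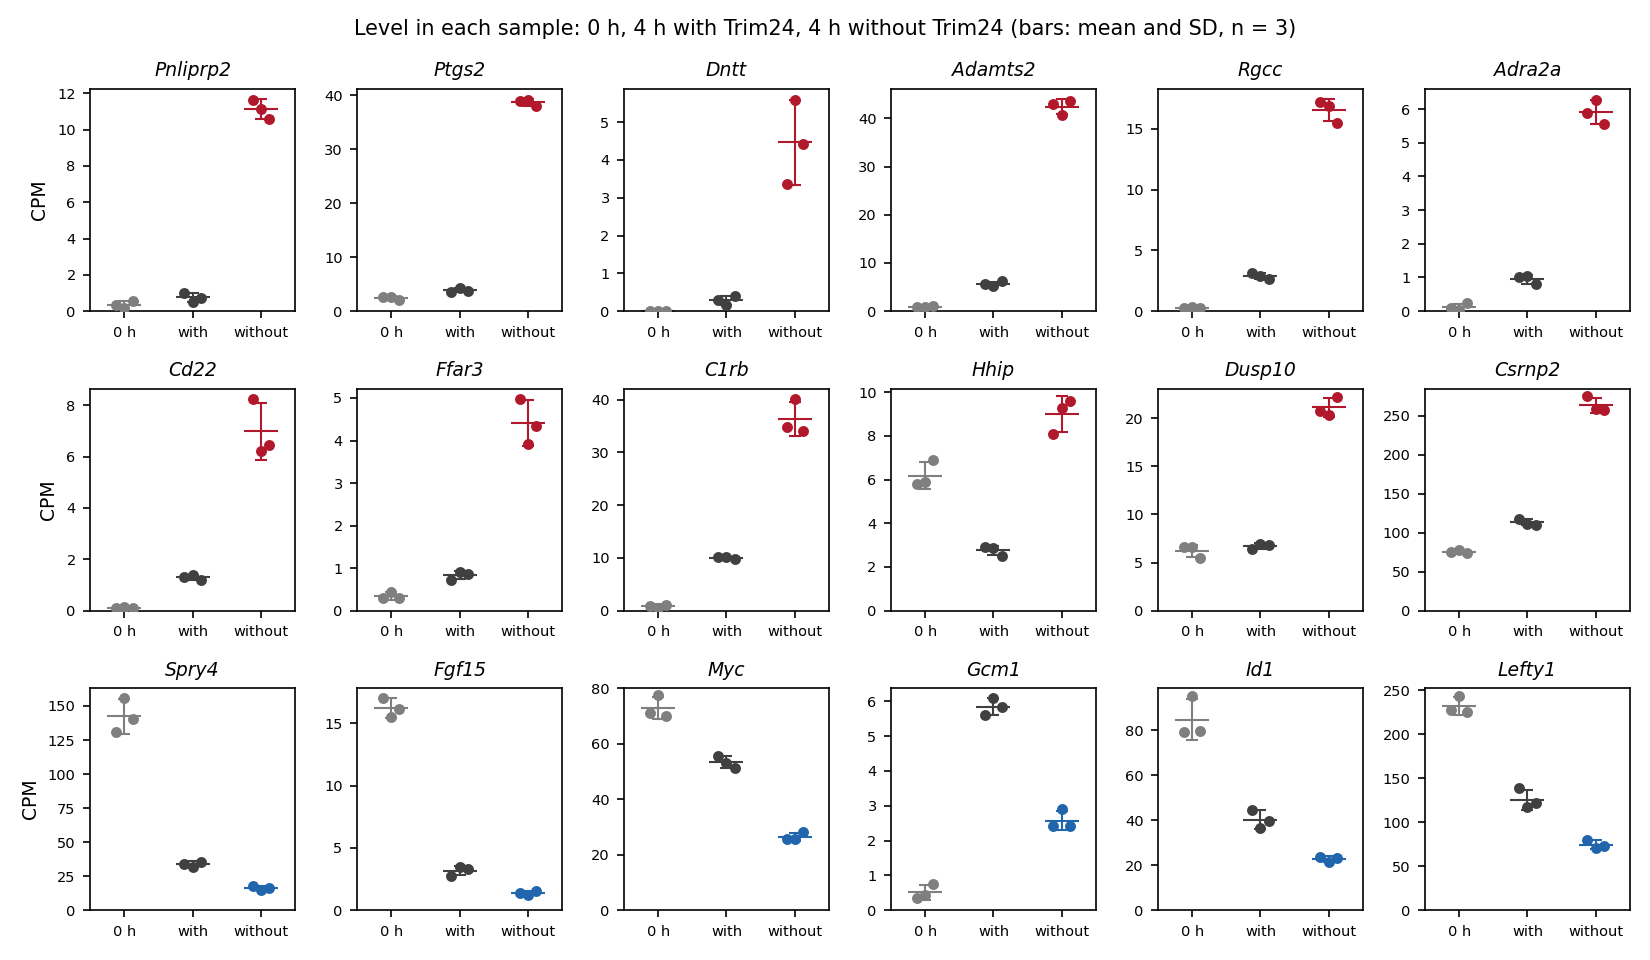
Level in CPM (vertical, linear from 0) of 18 genes in each of the 3 samples at 0 h, the 3 samples at 4 h with Trim24 and the 3 samples at 4 h without Trim24, with bars for mean and SD. In the upper 12 panels every sample without Trim24 lies above every sample with it, and in the lower 6 every one lies below. For Hhip, Spry4, Fgf15, Myc, Id1 and Lefty1 the samples at 4 h with Trim24 lie below those at 0 h.

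Transcription factors and signalling proteins were also among the increases. Foxl1 and Foxc2, forkhead factors of mesenchyme whose genes are 9045 bases apart on chromosome 8, rose by 1.68 ± 0.19 and 1.5 ± 0.18 on the log2 scale. Foxl1 had 0 reads in each library at 0 h, 10 to 15 reads at 4 h with Trim24 and 50 to 71 reads without it. Rgcc, a regulator of cell cycle kinases, averaged 0.295 CPM ± 0.047 at 0 h, 2.90 ± 0.23 at 4 h with Trim24 and 16.5 ± 0.89 without it. It was the 1 called gene among 27 tested cell cycle inhibitors, beside 1.00% of all tested genes called higher and 0.149% called lower. Dusp10, a phosphatase of the stress kinases p38 and JNK, went from 6.42, 6.95 and 6.79 CPM to 20.7, 20.4 and 22.3 CPM (log2 fold change 1.60 ± 0.09, adjusted p = 2.9e-12), and it had been at 5.49 to 6.58 CPM at 0 h. Zfp558, a zinc finger gene, likewise stood at the same level at 0 h (2.76 CPM ± 0.24) and at 4 h with Trim24 (2.74 ± 0.30) and at 9.47 ± 0.21 without it. Tnfaip3, an inhibitor of NF-kB signalling, lay at 2.85, 2.64 and 2.57 CPM with Trim24 and at 5.25, 5.49 and 6.08 CPM without it.

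Hhip, the membrane protein that binds and limits hedgehog ligands, showed another order of levels. It was at 5.78, 5.89 and 6.89 CPM at 0 h, at 2.90, 2.87 and 2.51 CPM at 4 h with Trim24, and at 8.08, 9.29 and 9.62 CPM without it. The samples without Trim24 thus lay above the starting level, and those with Trim24 below it. Msc, a repressor of the basic helix-loop-helix family, averaged 3.24 CPM with Trim24 and 7.71 CPM without it and had been at 9.58 to 10.2 CPM at 0 h.

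By the change of the mean CPM, well-expressed genes were among the largest increases. Csrnp2, a nuclear protein of the cysteine- and serine-rich family, went from 118, 112 and 110 CPM with Trim24 to 275, 259 and 258 CPM without it (log2 fold change 1.22 ± 0.05, adjusted p = 3.7e-15). Tubgcp3, a subunit of the gamma-tubulin ring complex, went from 126 CPM ± 4.5 to 226 ± 3.7, and Raver2, an RNA-binding protein, from 40.7 ± 0.58 to 100.0 ± 3.3. Nin, a centrosomal protein, averaged 57.5 ± 1.0 with and 100.4 ± 4.7 without Trim24. In each of these 4 genes the difference was larger than the spread between replicates, with all 3 samples without Trim24 above all 3 with it. They were picked as called genes with a large change of CPM, which largely sets this separation.

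At the other end, 2 of the 162 genes had at most 3 reads in all over the 3 libraries with Trim24. Olfr1188, an olfactory receptor gene on chromosome 2, had 0, 0 and 2 reads with Trim24 and 32, 31 and 35 without it, at least 30.7-fold higher when set against a floor of 3 reads over the group. Ppp1r42 had 2 reads in all with Trim24 and 46 without it, at least 14.4-fold higher on the same floor. These limits cover counting error only.

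Only 81 of 1137 olfactory receptor genes and 50 of 351 vomeronasal receptor genes passed the filter, which near-silent genes can pass through the higher group alone. Among those that passed, 5 and 3 rose, and nothing is read from these counts. The summed level of all 1137 olfactory receptor genes lay at 91.7 to 103 CPM with and 120 to 151 CPM without Trim24, without overlap, at the smallest two-sided p that an exact permutation of 3 against 3 samples allows (0.10). In the separate samples that sum lay at 97.3 to 191 CPM with Trim24 and 79.1 to 110 CPM without it, with overlap. Olfr1188 and Vmn2r104 themselves rose in both experiments.

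Among the 24 lower genes, several encode parts of growth factor signalling. Spry4, a feedback inhibitor of FGF and ERK signalling, lay at 34.2, 31.4 and 35.6 CPM with Trim24 and at 18.1, 14.8 and 16.6 CPM without it (log2 fold change -1.02 ± 0.08, adjusted p = 1.8e-09). It had been at 131 to 156 CPM at 0 h. Fgf15, a secreted FGF of the endocrine branch, went from 16.2 CPM ± 0.78 at 0 h to 3.17 ± 0.37 at 4 h with Trim24 and 1.38 ± 0.17 without it. Of 27 tested members of the FGF and ERK feedback list these 2 fell, beside 0.149% of all tested genes called lower. A positive log2 fold change was seen in 3 of the 27, beside 50.4% of all tested genes. The list's median was -0.225 in the time course and -0.237 in the separate samples, and Fgf4, the main FGF ligand of stem cells, lay at 147, 157 and 143 CPM against 95.7, 97.7 and 92.5 CPM (log2 fold change -0.64 ± 0.05, adjusted p = 2.4e-09, short of the fold minimum). At an adjusted p under 0.05, 12 of the 27 were lower and 1, the receptor gene Fgfr2, was higher with 0.71. Of all tested genes 6.20% were lower and 5.25% higher at that threshold. The 12 became 6 without replicate 1 or replicate 3 with Trim24 or without replicate 3 of the degraded samples.

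Myc, the growth-promoting transcription factor, lay at 55.7, 53 and 51.3 CPM with Trim24 and at 25.6, 25.7 and 28.1 CPM without it (log2 fold change -1.0 ± 0.07, adjusted p = 6.1e-11). Its relative Mycn went from 103 CPM ± 6.8 at 0 h to 17.9 ± 1.2 with and 10.5 ± 1.4 without Trim24 (log2 fold change -0.75 ± 0.10), and its call was lost on leaving out any of 3 of the 6 libraries. The other 19 tested members of the MYC network list, such as Mnt at -0.37 and Mycl at -0.31, were not called. Gcm1, the trophoblast factor, showed the opposite order: it stood at 0.517 CPM ± 0.22 at 0 h, at 5.84 ± 0.25 at 4 h with Trim24 and at 2.57 ± 0.29 without it. Id1, an inhibitor of helix-loop-helix factors and a BMP target, averaged 40.3 ± 4.1 with and 22.7 ± 1.2 without Trim24. Lefty1, a Nodal antagonist, averaged 126 ± 12 and 74.2 ± 5.0, and Ngfr, the low-affinity neurotrophin receptor, 25.2 ± 3.8 and 14.3 ± 1.3. The calls of Lefty1, Ngfr and Id1 were lost on leaving out any of 3, 2 and 1 of the 6 libraries. Gcm1 was the 1 called gene of 10 tested trophoblast markers, and Snai1 that of 15 tested primitive streak markers. The call of Snai1 was lost on leaving out any of 4 of the 6 libraries. In the separate samples Snai1 stood at -0.19 (adjusted p = 0.51 with limma). Of all tested genes 0.149% were called lower, and these lists and the MYC network list were chosen with earlier results known.

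Below the fold minimum, most immediate early genes, the fast-responding genes downstream of growth factors, had lower values without Trim24. None of the 28 tested immediate early genes was called by limma, 25 had a negative log2 fold change, 21 had an unadjusted p under 0.05 in that direction and 18 an adjusted p under 0.05, and limma-voom on recovered reads called 2 of them lower. Of all tested genes 50.4% had a positive value, 13.2% were lower at an unadjusted p under 0.05 and 6.20% after adjustment. The median of the immediate early genes was -0.457 in the time course and -0.232 in the separate samples, and it lay between -0.504 and -0.427 under the other scalings and without any 1 library. Jund, a subunit of AP-1, lay at 24.8, 18.2 and 17.1 CPM with and 10, 13.1 and 12.0 CPM without Trim24 (log2 fold change -0.75 ± 0.12), and the AP-1 gene Junb had the same estimate with an adjusted p of 1.3e-02. In the separate samples these were -0.17 and -0.22, neither past an adjusted p of 0.05. Of the 22 naive pluripotency genes 0 were called by limma or limma-voom. At an unadjusted p under 0.05 13 were lower and at an adjusted p under 0.05 11, with 0 higher, beside 13.2% and 6.20% of all genes lower. Nanog lay at 192, 198 and 190 CPM with and 140, 140 and 134 CPM without Trim24 (log2 fold change -0.48 ± 0.05, adjusted p = 1.0e-07), and Sox2 changed by -0.44, Klf4 by -0.56 and Klf2 by -0.66. The list's median was -0.162 in the time course and -0.184 in the separate samples. Klf2 and Klf4 stand in both lists.

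The replication-dependent histone genes, a family taken up after Hist1h2ao and H2ac6 were seen among the 24 lower genes, had lower values as a group in the time course. Of 58 tested members 57 had a negative log2 fold change and the median was -0.446, against -0.055 in the separate samples. Their summed level was 7912, 5846 and 6082 CPM with Trim24 and 5347, 4862 and 4728 CPM without it. Replicate 1 with Trim24 stood above the others, and the median without it was -0.315, while limma's count at an adjusted p under 0.05 went from 23 to 44 without that replicate and to 2 without replicate 2 of the degraded samples, and it lay between 12 and 39 without any other library. Most of these transcripts lack a poly(A) tail, and libraries of total RNA can hold them. Cldn3, a tight junction protein, had the lowest log2 fold change of all called genes (-1.12 ± 0.18, from 2.85, 2.01 and 2.34 CPM to 0.735, 1.00 and 0.990), and in the separate samples its value was -0.08.

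No known p53 target of the list reached the call. Of its 45 tested members 0 were called by limma or limma-voom, where limma called 1.00% of all genes higher and 0.149% lower. At those shares few or no calls would be expected among 45 genes. The list had 7 increases and 13 decreases at an unadjusted p under 0.05, and 5 and 10 after adjustment. Over all genes the shares were 11.7% and 13.2% unadjusted and 5.25% and 6.20% after adjustment. The 10 became 5 without replicate 3 of the degraded samples and 6 without replicate 1 or replicate 3 with Trim24. In the separate samples the list had 9 increases and 4 decreases at an adjusted p under 0.05, beside 15.3% and 7.02% of all genes. The list's median was -0.059 in the time course and 0.045 in the separate samples. Mdm2 lay at 930, 980 and 989 CPM with and 921, 994 and 941 CPM without Trim24 (log2 fold change -0.02 ± 0.04, adjusted p = 0.81). Cdkn1a, the cell cycle inhibitor p21, lay at 75, 77.6 and 75.1 CPM with and 93.0, 80.7 and 89.2 CPM without Trim24, a log2 fold change of 0.20 ± 0.06 in the time course and of 0.65 ± 0.06 in the separate samples. The target genes with the largest estimates were lower: Plk3 at -0.51, the death gene Bbc3 at -0.47, Trp73 at -0.42 and Phlda3 at -0.34. In the separate samples they stood at -0.15, 0.01, -0.34 and -0.06, of which only Trp73 passed an adjusted p of 0.05. Trp53 RNA changed by -0.16 ± 0.05 (adjusted p = 0.037).

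The remaining lists with a call held 1 or 2 called genes each. Of all tested genes 1.00% were called higher and 0.149% lower. The lists were chosen with earlier results known, so their counts are a description. Ptgs2 was the 1 called gene of 25 in the prostanoid and eicosanoid pathway, where Pla2g4a, the phospholipase that releases arachidonic acid, had 0.49 and Ptges, the enzyme after Ptgs2, had -0.58 (adjusted p = 5.5e-06). Tnfaip3 was the 1 called of 22 NF-kB response genes, with Birc3 at 0.69, Tnip3 at 0.67 and Bcl3 at -0.44 and a list median of -0.086. Pnliprp2 and Reg1 were the 2 called of 12 tested genes of pancreatic and digestive secretion (27 listed). Both were low with Trim24, and such genes can pass the filter through the samples without Trim24 alone. The 6 defining acinar markers, of which Ctrb1 had no reads, lay at 1.26 to 1.61 CPM in sum with and 1.42 to 1.56 CPM without Trim24. Adamts2 and Adam12 were the 2 called of 29 ADAMTS and ADAM proteases. In all, 11 of the 24 lists had a called member. The other 13, set apart by having 0 calls by limma, held 268 list places, where a gene of 2 lists counts in each. These places had 14 increases and 70 decreases at an unadjusted p under 0.05, beside 11.7% and 13.2% of all genes. They had 2 calls by limma-voom. Of the 70 decreases 21 were of the immediate early list, 13 of the naive pluripotency list and 13 of the p53 list. Apart from the immediate early, naive pluripotency and p53 lists these were retinoic acid, interferon, TIF1, cell death, neuroectoderm, primitive endoderm, fibroblast, 2-cell-like, germline and housekeeping genes. The 15 housekeeping genes had a median of 0.018. In a culture of mixed states, fewer cells of a kind and less RNA per cell cannot be told apart.

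**Figure D3:**
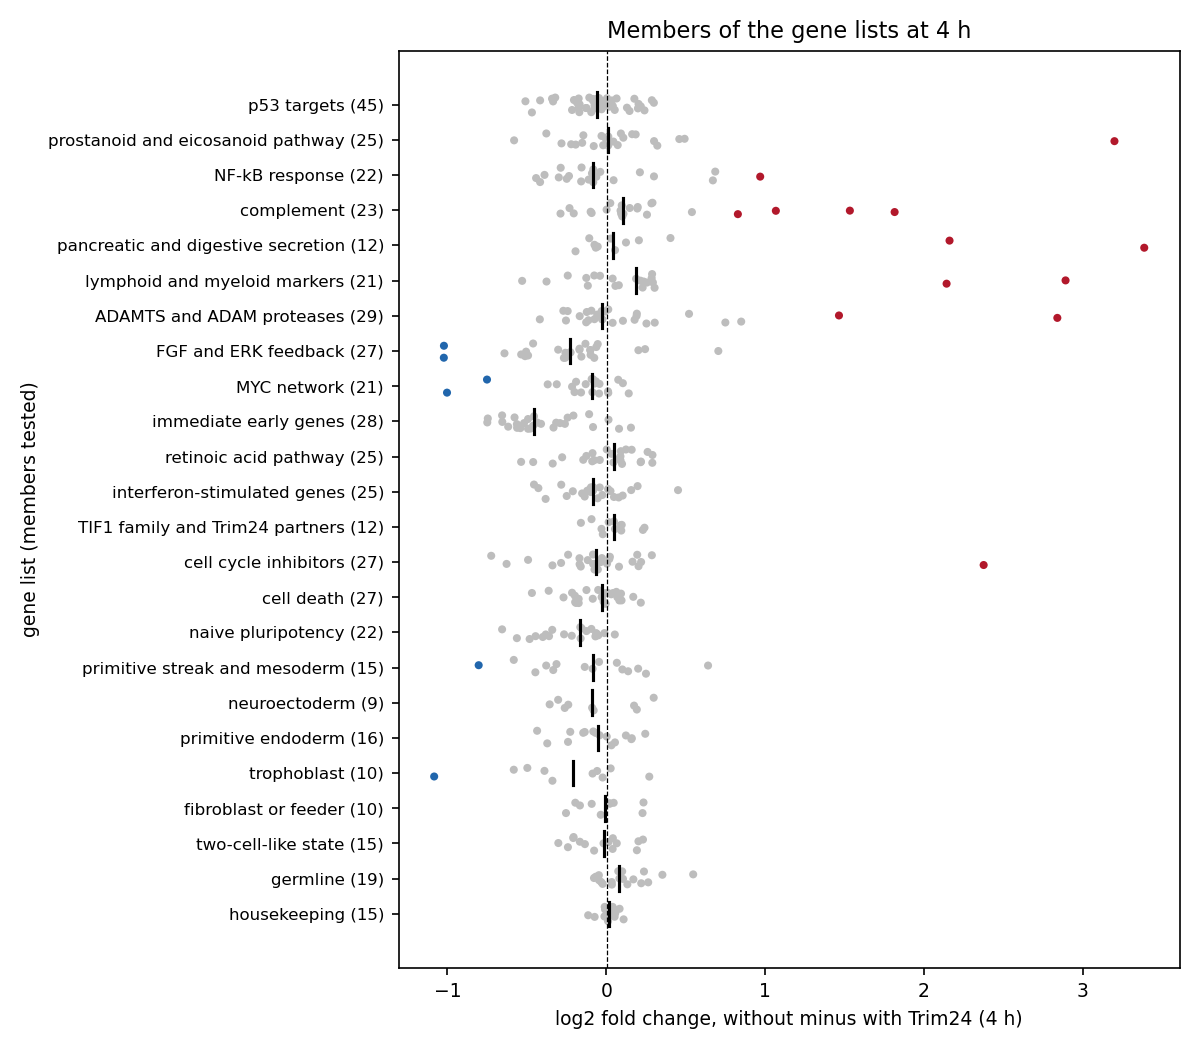
Log2 fold change at 4 h (horizontal) of every tested member of the 24 gene lists (rows, with the number tested), with called genes in red (higher) or blue (lower), the list's median as a black bar and the median of all genes as a dashed line. The immediate early genes have the lowest median (-0.457), and each list holds between 0 and 4 red points.

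Some of the genes that rose had a neighbour that rose. With gene positions from GENCODE M21 (GRCm38, the coordinates of mm10), 23 of the 161 placed higher genes (14.3%) had another higher gene within 100 kb, and of the 415 tested genes within 100 kb of a higher gene 23 were higher (5.54%), beside 1.00% of all tested genes. Among the 392 such neighbours that were not called higher, 276 had a positive log2 fold change (70.4%), beside 50.4% of all tested genes, with a median of 0.078. The filter bears on the low genes among these neighbours as well. The groups included C1ra, C1rb and C1s2 on chromosome 6, Cd22, Ffar1 and Ffar3 on chromosome 7, Foxc2 and Foxl1 on chromosome 8, and Adamts2, Zfp879, Grm6 and Zfp354b on chromosome 11. A further run on chromosome 7 held Mmp21, Dhx32, Fank1, Adam12 and D7Ertd443e. Pairs included Lrrc20 with Npffr1 (chromosome 10) and Gpm6b with Rab9 (chromosome X). Fank1, on the plus strand, starts within Dhx32, on the minus strand. Genes were counted with the default setting of the counter, which takes no account of strand, so reads from the shared part of that pair cannot be told apart. Among the 24 lower genes the 1 pair was Efna3 with Trim46 on chromosome 3.

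**Figure D4:**
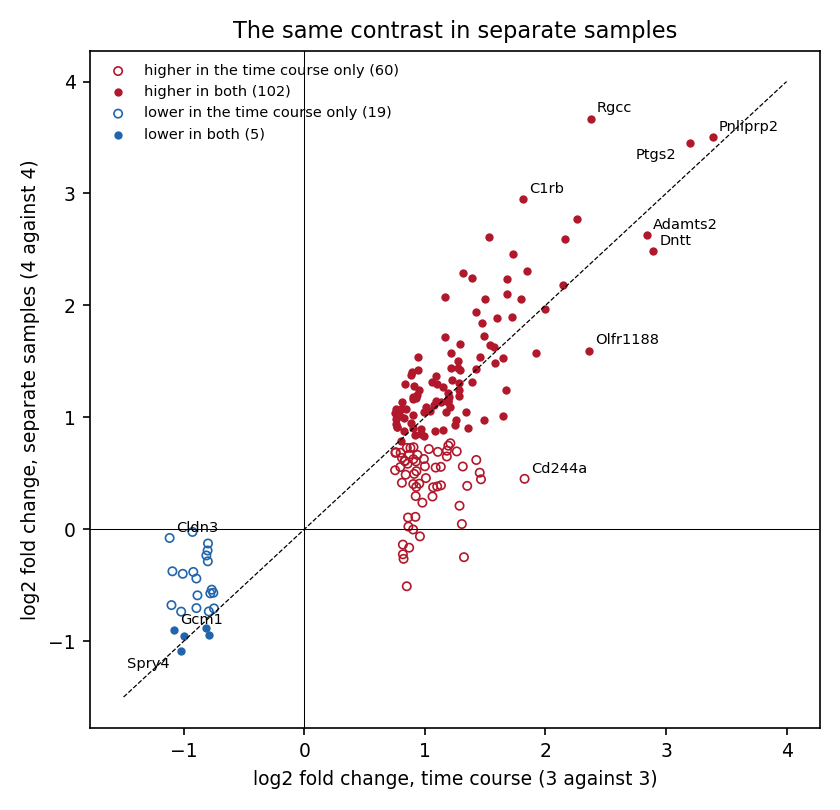
Log2 fold change of the 162 higher (red) and 24 lower (blue) genes in the time course (horizontal) and in the separate samples (vertical), with filled points for genes called in both and the dashed line at equal values. Filled red points are 102 and filled blue points 5. Rgcc lies above the line (2.38 and 3.67), and Cd244a below it (1.83 and 0.45).

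The separate samples share no library with the time course and gave the same question a second answer. There limma called 165 genes higher (1.01% of 16313 tested) and 22 lower (0.135%), and of the 162 time course increases 102 were called higher again, 63.0% of the 162 and 61.8% of the 165. A positive value was seen in 154 of the 162. Of the 24 decreases 5 were called lower again (Gcm1, Spry4, Myc, Id1 and Ngfr), 20.8% of the 24 and 22.7% of the 22, and all 24 had a negative value. The median log2 fold change of the 162 was 1.10 in the time course and 1.02 in the separate samples, and of the 24 it was -0.891 and -0.571. At an adjusted p under 0.05 without a fold minimum the separate samples gave 2503 higher (15.3%) and 1145 lower genes (7.02%), and there the degraded samples were the deeper ones, at 24492233 to 33893100 reads against 16669410 to 21072810. The part of depth in those smaller changes was not tested.

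Pnliprp2 lay at 0.465, 0.243, 0.623 and 0.702 CPM with and 8.52, 8.78, 9.93 and 9.80 CPM without Trim24 in the separate samples (log2 fold change 3.5 ± 0.16, n = 4 and 4, adjusted p = 2.9e-19 with limma). Ptgs2 lay at 2.12, 3.36, 2.08 and 2.87 against 33.8, 29.6, 32.7 and 30.5 CPM, and Adamts2 at 5.84, 5.64, 6.23 and 5.67 against 39.6, 40.4, 37.1 and 34.9 CPM. In all 3 genes the levels without Trim24 were somewhat below those of the time course, although the 2 tables were normalized separately. Rgcc had a lower level with Trim24 there, at 0.879, 0.778, 1.77 and 0.702 CPM, and 15.3 to 17.5 CPM without it. Myc lay at 31.1 to 32.1 CPM with and 14.2 to 18.6 CPM without Trim24, and Gcm1 at 3.94 to 4.65 and 1.83 to 2.74 CPM. Neither group of 4 overlapped the other for these 6 genes. The 8 genes with a negative value in the separate samples were Vmn2r53, Abca8b, Nipal2, Zc3h6, Nr3c2, Prickle2, Dnm3 and Kcnj15, named after their values were seen, and their time course values were 0.82 to 1.32.

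Fewer genes were called at 2 h and more at 12 h. The same contrast at 2 h gave 51 increases (0.325%) with 2 decreases (0.0127%). At 8 h it gave 198 increases (1.14%) with 78 decreases (0.448%), and at 12 h 453 (2.70%) with 237 (1.41%). The 162 genes higher at 4 h had a median log2 fold change of 0.629 at 2 h, 0.973 at 8 h and 0.815 at 12 h, against medians of all genes of -0.005, -0.042 and -0.021. Of the 162, 43 were called higher at 2 h, 110 at 8 h and 90 at 12 h, with 33 higher at all 4 times and 41 at 4 h alone. Those 33, headed by Pnliprp2, Ptgs2, Dntt, Adamts2 and Rgcc, were all called in the separate samples too. Of the 24 lower genes 1 was called lower at 2 h, 9 at 8 h and 3 at 12 h, and at 12 h 15 of the 24 had a positive value. Gcm1, Myc and Nab2 were the 3 still lower at 12 h, and Ggn and Lefty1 were called higher there.

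Effects were compared between times by the difference of the differences. Between 2 h and 4 h limma found 8 genes with a smaller effect at 2 h (0.0485% of 16508) and 0 with a larger one (0%), where 1046 had an unadjusted p under 0.05 and limma-voom called 5. Those 8 were all among the 162. Between 8 h and 4 h, 16 genes had a higher effect at 8 h (0.0903%) and 4 a lower one (0.0226%), and between 12 h and 4 h the counts were 383 (2.22%) and 221 (1.28%). Selecting genes as high or low at 4 h enters these differences, so the counts of members in them are a description.

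In some genes the effect was not called at 2 h and larger after 4 h. Fank1, an ankyrin-repeat protein of germ cells, averaged 2.15 CPM with and 2.28 CPM without Trim24 at 2 h. These levels were 3.46 and 10.9 CPM at 4 h, 12.1 and 120 CPM at 8 h, and 14.1 and 164 CPM at 12 h. Its neighbour Dhx32, a helicase-like protein, went in the same order from 61.2 and 60.9 CPM at 2 h to 62.6 and 107 at 4 h and 72.5 and 326 at 12 h. Their log2 fold changes were 0.10 and -0.01 at 2 h, and both were called at 4, 8 and 12 h. Hhip had a log2 fold change of -0.01 at 2 h, 1.58 at 4 h and 2.75 at 8 h, with 0.625 CPM ± 0.32 with and 6.04 ± 0.43 without Trim24 at 8 h. Msc followed with -0.14, 1.17 and 2.49, and at 12 h it averaged 2.05 CPM with and 20.4 CPM without Trim24. Their levels at 0 h were 6.19 CPM ± 0.61 for Hhip and 9.88 ± 0.3 for Msc, which the samples without Trim24 stayed closer to at 8 h than those with it.

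Other genes had a smaller effect at 12 h than at 4 h by the test of the difference. Adamts2 had a log2 fold change of 3.15 at 2 h, 2.84 at 4 h, 1.18 at 8 h and 0.81 at 12 h, and the effect at 8 h was already 1.66 below that at 4 h. Bfsp2, a lens filament protein, had 2.02, 1.80, 0.93 and 0.37 at the same times, Rcsd1 had 1.83, 1.54, 0.96 and 0.71, and Dusp10 had 1.41, 1.60, 0.85 and 0.78. Rcsd1 lay at 15.4 to 17.9 CPM with Trim24 at 4 h and averaged 36.8 CPM at 12 h. Without Trim24 it averaged 49.0 CPM at 4 h and 60.6 CPM at 12 h. Ptgs2 had a log2 fold change of 3.32 at 12 h, with 17.5 CPM ± 1.4 with and 177 ± 8.4 without Trim24 at 12 h.

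**Figure D5:**
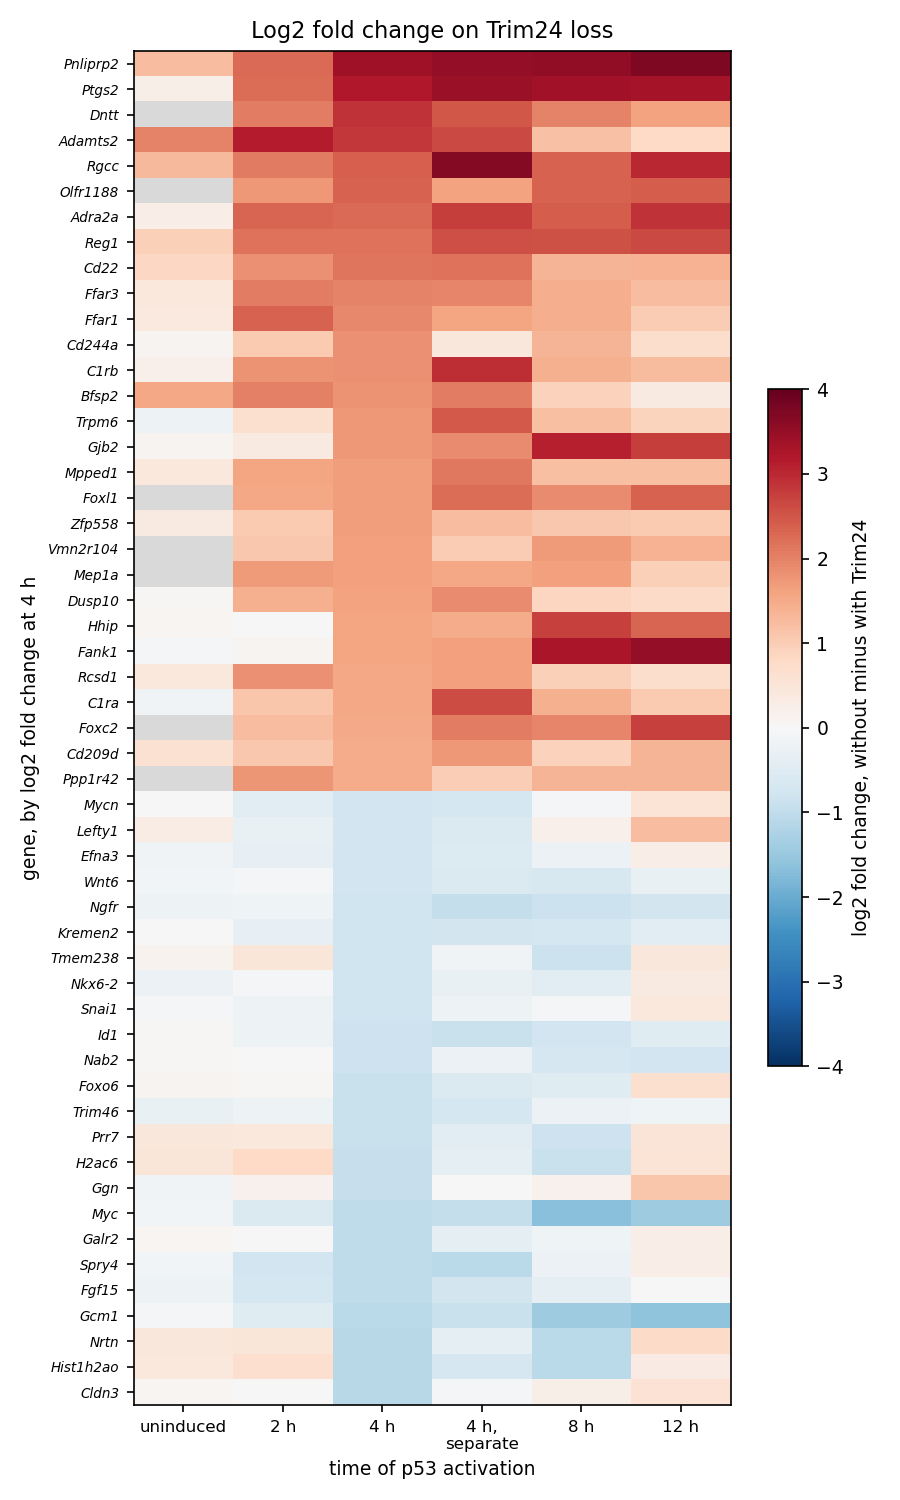
Log2 fold change on Trim24 loss (colour, red higher and blue lower) of 29 of the 30 largest increases and the 24 decreases at 4 h (rows), in uninduced cells, at 2 h, 4 h, 4 h in the separate samples, 8 h and 12 h (columns), with grey where a gene was not tested. Fank1 and Hhip are pale at 2 h (0.10 and -0.01), Adamts2 fades from 3.15 at 2 h to 0.81 at 12 h, and 15 of the 24 lower genes have a value above 0 at 12 h.

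Fewer genes were called without doxorubicin. In uninduced cells limma called 12 genes higher on Trim24 loss (0.0781% of 15360 tested) and 0 lower, where 518 genes were lower at an unadjusted p under 0.05 and limma-voom also called 0. Of the 162 genes 121 could be tested there, 9 were called higher and 90 had a positive value, with a median of 0.184, and the 24 lower genes had a median of -0.006. Adamts2 had 1.99, Bfsp2 1.55, Rgcc 1.30 and Pnliprp2 1.22, each called. Ptgs2 averaged 3.26 CPM without and 3.88 CPM with dTAG13 (log2 fold change 0.24, adjusted p = 0.74), and Csrnp2, which averaged 53.9 and 86.0 CPM, had 0.67, short of the fold minimum. The difference between the effect in activated and in uninduced cells was not tested, as the samples were in different tables.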

How the data were processed

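RNA was sequenced as total RNA libraries. Per the labels and the study's methods, the authors demultiplexed with bcl2fastq (2.17 or 2.20), aligned to mm10 with STAR, allowing up to 20 matches with 1 kept at random, counted reads over protein-coding genes of GENCODE M25 with featureCounts at otherwise default settings, left out predicted Gm genes, and deposited TMM-scaled log2 CPM with a prior count of 8. The deposited log2 values were used as they stand, since they are not counts. Whole reads were recovered from them (100.0% of values within 0.01 of a whole number) for depths, CPM and 1 alternative. The 2 groups of 3 samples were compared with limma (3.58.1, R 4.3.3; trend and robust moderation) on genes at least 0.5 above the floor of -1.48 in 3 or more libraries (4 for the separate samples), with Benjamini-Hochberg adjustment over all genes tested. Calls required a log2 fold change beyond 0.75 in either direction and an adjusted p below 0.01. Differences between times came from an interaction in the same model. 3 tables were tested each within itself, and a table of wild-type cells was not used. The script was tested on simulated data with known changes.

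The 24 gene lists, the families and the rule for named genes were chosen with earlier results of these data known. Named were the 30 largest increases and the 24 decreases without overlap, the 8 and 6 largest changes of CPM, up to 4 members and every called member of each list, 7 set genes, up to 5 genes per direction and time whose effect differed, called neighbours within 100 kb, genes with at most 3 reads, and promoters with a p53 core pair. Same-numbered replicates did not pair: the correlations of their deviations were 0.101, 0.0639 and 0.0123. Alternatives were another scaling, limma-voom, other filters and thresholds, a replicate block and leaving out each library. A few genes that this rule takes are not reported here.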

Additional observations from a re-analysis of the deposited data

Results flagged for a closer look

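3 values of the separate samples at 4 h stood far from the other samples of their group, among 30 groups of 4 examined, where chance flags about 1 in 20: Rgcc at 1.77 CPM in replicate 6 with Trim24, Spry4 at 24.1 CPM in replicate 6 with Trim24, and the summed olfactory receptor genes at 191 CPM in replicate 7 with Trim24. Without that replicate 7 the separate samples gave 182 higher and 20 lower genes.

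The effect of Trim24 loss at another time differed from that at 4 h, by the test of the difference, in the following cases. At 2 h minus 4 h the log2 differences were -1.60 for Hhip, -1.47 for Fank1, -1.31 for Msc, -0.96 for Ptgs2 and -0.95 for Fam184b. At 8 h minus 4 h they were 1.74 for Gas1, 1.70 for Fank1, 1.51 for Hmcn1, 1.38 for Gjb2 and 1.34 for Cldn3, and -1.66 for Adamts2, -0.94 for Nos2, -0.85 for Fgf4 and -0.75 for Dusp10. At 12 h minus 4 h they were 2.42 for Gas1, 2.35 for Foxd3, 2.27 for Hmcn1, 2.18 for Insm1 and 2.03 for Ggn, and -2.03 for Adamts2, -1.96 for Ccl3, -1.79 for Kcnj15 and -1.74 for Slc5a8. Gas1 and Hmcn1 had log2 fold changes of 0.15 and 0.46 at 4 h and were not called there, and Ccl3 was too low at 4 h to be tested there.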

How the results depend on the processing

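The 162 increases and 24 decreases at 4 h numbered 85 and 5 without trend and robust moderation and 105 and 11 without the filter on low values, where more genes were tested. With limma-voom on recovered reads 42 genes were lower, and with an adjusted p under 0.05 and no fold minimum the counts were 848 and 1000. Leaving out each library in turn gave 127 to 155 increases and 18 to 39 decreases, with 39 without replicate 3 with Trim24. In the separate samples 22 decreases became 35 with limma-voom and 12 without trend and robust moderation, the counts without a fold minimum were 2503 and 1145, and leaving out 1 library gave 152 to 182 increases and 19 to 30 decreases. The 102 increases called again were 100 to 109 without 1 separate library. The 8 genes whose effect differed between 2 h and 4 h were 13 with limma-voom. Where counts moved, the cause was not tested beyond what each setting states. No called gene among those named turned its direction under the alternatives run. Of 161 named genes, 33 lost their call without trend and robust moderation, 21 without the filter, and 7 to 17 on leaving out 1 library. The numbers did not pair the samples, and with a replicate block 166 genes were higher and 36 lower, which held all 162 and all 24. Under the replicate block every named gene kept its side of the threshold. Leaving out 1 library gave 44 to 50 calls at 2 h, 235 to 314 at 8 h, 619 to 768 at 12 h and 9 to 18 in uninduced cells, each with 1 group then resting on 2 libraries. Genes with under about 10 reads per library carry counting error that these 3 libraries a group cannot narrow.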
